A study of Mus musculus with 3 samples.

Results

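The fibroblast growth factor (FGF) genes examined here were 4 ligands (Fgf2, Fgf7, Fgf10 and Fgf18) and 5 receptors (Fgfr1, Fgfr2, Fgfr3, Fgfr4 and Fgfrl1), chosen by name, 9 of the 32285 genes in the deposited matrices. They were measured by single-cell RNA sequencing in the CD31- CD45- stromal vascular fraction, the non-endothelial and non-leukocyte part of dissociated fat, of subcutaneous inguinal fat pads. The 3 libraries came from 3 wild-type male C57BL/6J mice aged 8 weeks, 1 library per mouse, with no treatment. All comparisons were therefore between classes of cells within the same animals, and n is 3 mice throughout.

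FGFs are secreted proteins that bind receptor tyrosine kinases at the cell surface, with heparan sulphate chains as part of the complex. FGF7 and FGF10 act mainly through the epithelial splice form of FGFR2. FGF2 binds several receptors, and FGF18 is best known from bone and cartilage, where it acts through FGFR3. FGFRL1 resembles the other receptors outside the cell but lacks the kinase domain. In mice, loss of Fgf10 impairs the formation of white fat, and FGF2 and FGFR1 are both known to act on adipocyte precursors in culture.

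Cells with more than 500 detected genes and under 5% mitochondrial UMIs were kept (a UMI, unique molecular identifier, marks 1 captured RNA molecule). They were then sorted into 4 classes by the UMIs of 8 gate genes. Progenitor cells held at least 3 UMIs of Dpp4 plus Pi16 and at most 1 of Icam1 plus Fabp4. Preadipocyte cells held at least 4 UMIs of Icam1 plus Fabp4 and at most 1 of Dpp4. Regulatory cells held at least 1 UMI each of Clec11a and Fmo2 with at most 1 of Fabp4 and at most 1 of Dpp4. Cited1 cells held at least 2 UMIs of Cited1 and at least 2 of Fabp4 plus Lpl. In all 3 mice the classes held 19793, 5338, 1051 and 349 cells respectively, of 34577 cells kept. Values are given as CPM, the UMIs of a gene divided by all UMIs of that class in that mouse and scaled to 1000000.

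The libraries held 6872 to 16220 barcodes, and median UMIs per kept cell ran from 6667 in mouse 3 to 12192.5 in mouse 2. Pairs of libraries shared 37, 45 and 59 barcodes. Of the other markers listed for each class, 8 of 8 were highest in progenitor cells in every mouse, 5 of 7 in preadipocyte cells, 4 of 5 in regulatory cells, and only 1 of 6, Ptn, in Cited1 cells. The Cited1 gate thus selected cells with Cited1 RNA whose other committed markers were not all highest there, and Adipoq, which encodes adiponectin, was at 0 to 0.48 CPM in them. Cd36 and Cebpa stood on both the preadipocyte and the Cited1 list, so neither could be highest in both classes. The lists were chosen with earlier results of these data known, so these marker counts are a description. The Cited1 cells also differed between mice. Of them, 170 of 212, 23 of 64 and 34 of 73 in mice 1, 2 and 3 also met the preadipocyte gate, and were counted as Cited1 cells alone. In mouse 2, 24 of 64 also met the progenitor gate, and Car3 stood at 13.8 CPM against 230.5 and 237.8 in mice 1 and 3. In mouse 3, 11 of 73 held a UMI of an epithelial gene (Epcam, Krt8, Krt18 or Cdh1), against 0 of 212 and 0 of 64 in mice 1 and 2, and the summed level of these 4 genes was 0 to 670 CPM. Values of the 9 FGF genes in Cited1 cells are therefore given with and without such cells where they matter. Levels of other pathway genes in Cited1 cells are given with them only.

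The 250 bases before the annotated start of 3 of the ligands are printed because each of these ligands was highest in a different class (RefSeq, GRCm38.p6; CG dinucleotides in capitals, read 5′ to 3′ on the gene's strand). The Fgf7 window lies at chr2:126034408-126034657 on the plus strand, the Fgf10 window at chr13:118714449-118714698 on the plus strand, and the Fgf18 window at chr11:33147401-33147650 on the minus strand. The Fgf7 window lies within Fam227b, a gene on the opposite strand, and the Fgf10 window within an intron of longer Fgf10 transcripts. None overlapped an exon of the GENCODE M21 annotation.
Fgf7: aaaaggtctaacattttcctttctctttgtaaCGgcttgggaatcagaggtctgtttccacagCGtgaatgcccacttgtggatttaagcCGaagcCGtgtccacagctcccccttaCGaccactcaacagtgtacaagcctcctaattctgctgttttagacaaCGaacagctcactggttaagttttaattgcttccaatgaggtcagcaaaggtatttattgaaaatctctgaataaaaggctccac
Fgf10: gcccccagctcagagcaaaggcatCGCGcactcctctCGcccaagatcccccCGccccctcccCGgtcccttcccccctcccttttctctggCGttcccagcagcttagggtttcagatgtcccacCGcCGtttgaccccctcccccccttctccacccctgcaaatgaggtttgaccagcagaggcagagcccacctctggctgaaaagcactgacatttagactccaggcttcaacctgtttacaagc
Fgf18: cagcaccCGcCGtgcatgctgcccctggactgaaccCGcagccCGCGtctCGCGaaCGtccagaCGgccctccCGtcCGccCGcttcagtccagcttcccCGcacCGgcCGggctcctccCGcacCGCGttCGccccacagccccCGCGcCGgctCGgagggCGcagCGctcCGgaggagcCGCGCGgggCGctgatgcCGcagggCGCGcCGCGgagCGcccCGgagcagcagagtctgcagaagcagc
The Fgf18 window held 37 CG dinucleotides, more than 97.8% of 32817 promoter windows of the same length, whereas the Fgf7 and Fgf10 windows held 6 and 8, against a median of 6 over all windows. A search of both strands for TATAAA found it in none of the 3 windows and in 12.4% of all windows. CCAAT, present in 33.8% of all windows, and AGGTCA, present in 14.0%, each occurred in the Fgf7 window and in neither of the others.

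In the GENCODE M21 annotation of GRCm38, the ligand genes lie at chr3:37348346-37410108 (Fgf2), chr2:126034658-126091185 (Fgf7), chr13:118669791-118792115 (Fgf10) and chr11:33117430-33147400 (Fgf18). The receptor genes lie at chr8:25513654-25575718 (Fgfr1), chr7:130162451-133123350 (Fgfr2), chr5:33721674-33737068 (Fgfr3), chr13:55152640-55168759 (Fgfr4) and chr5:108692382-108706924 (Fgfrl1).

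Summed over all kept cells, Fgfr1 gave 142814 UMIs, Fgf2 21583, Fgf7 17777, Fgf18 14420 and Fgf10 11466. Fgfrl1 gave 3041 UMIs and Fgfr2 1508. Fgfr3 and Fgfr4 were close to absent, with 65 and 21 UMIs. Of the 18 other FGF genes, 2 (Fgf3 and Fgf4) gave none, 10 gave fewer than 100, and the highest was Fgf9 with 736. Progenitor cells, the largest class, held 80.6% ± 3.6 of all Fgf2 UMIs (SD, n = 3) and 73.1% ± 6.26 of those of Fgfr1. For Fgf10 the corresponding share was 22.8% ± 5.11, while preadipocyte cells held 37.0% ± 3.43 and Cited1 cells 12.1% ± 9.74.

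**Figure D1:**
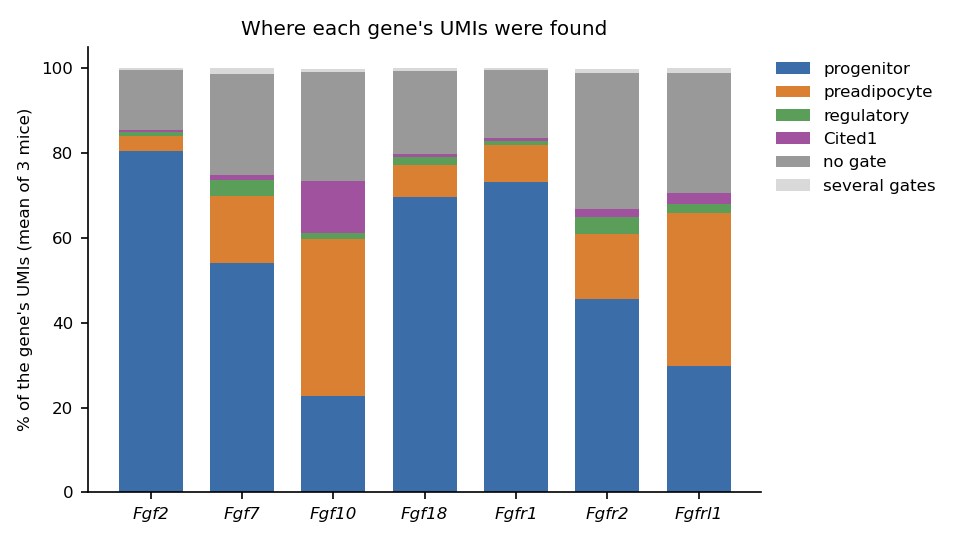
Bars show the percentage of each gene's UMIs found in each cell class (mean of 3 mice), with cells that met no gate in dark grey and cells left out because they met several gates in light grey. Progenitor cells held 80.6% of Fgf2 UMIs but 22.8% of Fgf10 UMIs.

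Fgf2, the basic FGF, was a ligand of progenitor cells. Its level in progenitor cells was 121.5, 75.47 and 133.2 CPM in mice 1, 2 and 3. It was 15.68, 10.30 and 15.90 CPM in preadipocyte cells, 14.15, 17.21 and 27.05 in regulatory cells, and 16.33, 35.03 and 48.15 in Cited1 cells. Progenitor cells stood above all other classes in every mouse with no overlap, while the other classes lay closer together. The difference from progenitor cells on the log2 scale was -2.99 in preadipocyte cells (SE 0.175, adjusted p = 2.72e-08), -2.39 in regulatory cells (SE 0.226, adjusted p = 4.07e-06) and -2.12 in Cited1 cells (SE 0.250, adjusted p = 5.12e-05). These are 7.96-fold, 5.25-fold and 4.36-fold lower levels. With the gates as given, no difference of Fgf2 between the 3 lower classes passed the test. The closest was the Cited1 against preadipocyte difference, 0.87 with an interval from 0.21 to 1.53 and adjusted p = 0.110. That difference was 0.16 when Cited1 cells that also met the progenitor or regulatory gate were left out. When Cited1 cells that met any other gate were left out, the levels lay further apart. The 31, 14 and 21 Cited1 cells that remained in mice 1, 2 and 3 held 35.5, 41.5 and 53.8 CPM. Preadipocyte cells held 15.7, 10.3 and 15.9 CPM. Exons of Fgf2 overlap those of Gm43439 on the same strand, and the assignment of reads from the shared stretch is uncertain.

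Fgf18 had the same order at its top. It stood at 74.29, 61.67 and 61.79 CPM in progenitor cells and at 21.82, 19.71 and 24.80 in preadipocyte cells. Regulatory cells held 52.35, 38.24 and 21.85 CPM and Cited1 cells 12.97, 52.01 and 25.58, so that these classes spread over a wide range between mice. Cited1 cells that met neither the progenitor nor the regulatory gate held 18.26, 38.17 and 17.52 CPM with 2 Cited1 UMIs. With 3 or more Cited1 UMIs they held 7.18, 23.79 and 20.75 CPM. Progenitor cells were above every other class in each mouse. Fgf18 was 3.05-fold lower in preadipocyte cells (log2 difference -1.61, SE 0.216, adjusted p = 4.50e-05) and 2.88-fold lower in Cited1 cells (-1.52, SE 0.352, adjusted p = 0.00578). The lower level in regulatory cells passed more narrowly (-0.81, SE 0.273, adjusted p = 0.0328). It did not pass without mouse 3 (-0.61, adjusted p = 0.274), and the Cited1 difference did not pass without mouse 1 (-0.75, adjusted p = 0.136) or without mouse 3 (-1.49, adjusted p = 0.0590). In all, the regulatory difference did not pass in 4 of 16 alternatives and the Cited1 difference in 3 of 16.

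Fgf7, also called keratinocyte growth factor, was highest in regulatory cells, at 103.3, 92.60 and 93.11 CPM. Progenitor cells held 66.46, 65.19 and 59.17 CPM, preadipocyte cells 62.17, 55.51 and 52.91, and Cited1 cells 44.18, 81.73 and 43.64. The regulatory values lay above all values of the other classes. Fgf7 was 1.54-fold higher in regulatory than in progenitor cells (log2 difference 0.62, SE 0.141, adjusted p = 0.00377), 1.76-fold higher than in preadipocyte cells (0.81, SE 0.144, adjusted p = 0.00154), and 2.03-fold higher than in Cited1 cells (Cited1 minus regulatory -1.02, SE 0.187, adjusted p = 0.00302). Without mouse 3 the first and second of these were of like size, 0.59 and 0.77, and did not pass (adjusted p = 0.0920 and 0.0733). The Cited1 against regulatory difference did not pass without mouse 1 (-0.69, adjusted p = 0.0894) or without mouse 3 (-0.88, adjusted p = 0.104). The difference in Fgf7 between progenitor and preadipocyte cells did not pass (-0.19, interval -0.46 to 0.08, adjusted p = 0.220).

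Fgf10 ran the other way from Fgf2. It was low in progenitor cells, at 22.07, 12.06 and 11.12 CPM in mice 1, 2 and 3, and in regulatory cells, at 22.64, 14.48 and 12.48 CPM. It was higher in preadipocyte cells, at 152.9, 40.15 and 68.29 CPM, and stood at 771.3, 74.30 and 382.2 CPM in Cited1 cells. With these gates the order was the same in every mouse, with Cited1 cells above preadipocyte cells and these above the other classes. When Cited1 cells that met any other gate were left out, 31, 14 and 21 cells remained in mice 1, 2 and 3. This class then held 604, 23.1 and 230 CPM. In mouse 2 the value lay below the preadipocyte level but rests on those 14 cells. The difference from preadipocyte cells was then 1.61 (adjusted p = 0.00638). The mice differed widely within a class, with mouse 1 highest in all 4 and mouse 2 lowest in preadipocyte and Cited1 cells. Fgf10 was 5.08-fold higher in preadipocyte than in progenitor cells (log2 difference 2.34, SE 0.315, adjusted p = 4.54e-05). It was 20.1-fold higher in Cited1 than in progenitor cells (4.33, SE 0.356, adjusted p = 3.28e-06) and 17.0-fold higher than in regulatory cells (4.09, SE 0.433, adjusted p = 9.39e-05). It was 3.96-fold higher in Cited1 than in preadipocyte cells (1.98, SE 0.323, adjusted p = 0.00303). Without mouse 3 this last difference was 1.80 and did not pass (adjusted p = 0.144). With Cited1 cells that met the progenitor or regulatory gate or held an epithelial UMI left out, it was 2.35 (adjusted p = 0.000187), and Cited1 cells held 804, 122 and 563 CPM.

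Regulatory cells held 4.30-fold less Fgf10 than preadipocyte cells (-2.1, SE 0.429, adjusted p = 0.00400), which did not pass without mouse 3 (-2.01, adjusted p = 0.0761). The difference between progenitor and regulatory cells did not pass (0.24, interval -0.78 to 1.26, adjusted p = 0.731). In both, the level was highest in mouse 1, the mouse with the most Fgf10 in its preadipocyte and Cited1 cells. Free RNA in the droplets and expression by the cells cannot be told apart at this level.

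**Figure D2:**
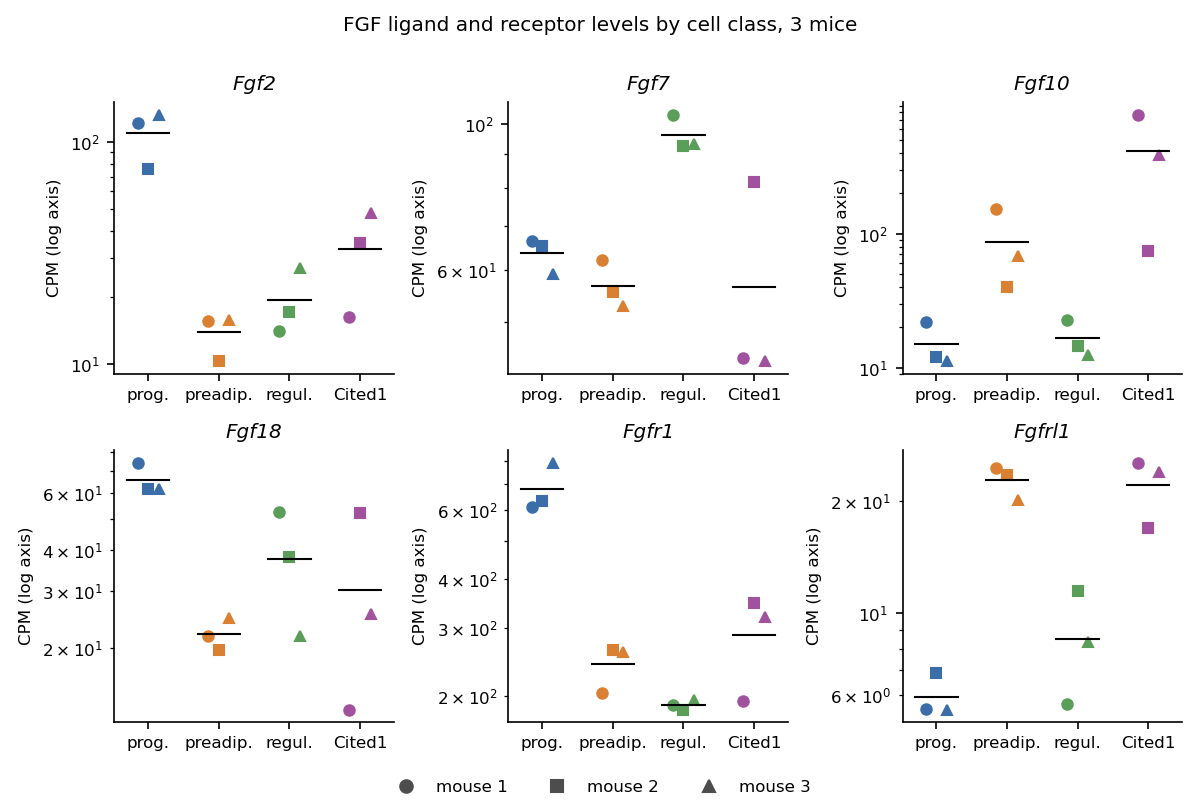
Points show the CPM of 6 genes in each cell class (log axis; one symbol per mouse; bars, mean of 3 mice). Fgf2, Fgf18 and Fgfr1 were highest in progenitor cells in every mouse, Fgf7 in regulatory cells, and Fgf10 in Cited1 cells with the gates as given.

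Because Fgf10 stood highest behind the Cited1 gate, its level was also read across the UMIs of Cited1, a transcriptional coactivator, in cells with at least 2 UMIs of Fabp4 plus Lpl that met neither the progenitor nor the regulatory gate. This is a description, since Cited1 defines the class. With 0, 1, 2 and 3 or more Cited1 UMIs, Fgf10 was at 106.4, 273.1, 703.7 and 846.8 CPM in mouse 1. The corresponding values were 34.74, 35.42, 79.81 and 170.5 CPM in mouse 2 and 51.73, 69.64, 110.9 and 690.8 CPM in mouse 3. The level rose at every step in each of the 3 mice, but hardly at the first step in mouse 2. There the value with 1 Cited1 UMI rests on 49 Fgf10 UMIs in 102 cells. The last steps rest on few cells, 17 and 17 in mouse 2 and 18 and 36 in mouse 3. Median UMIs per cell in mouse 1 rose over the same steps from 7674 to 9480. In mouse 2 they were 12812, 12746, 16289 and 12514, and in mouse 3 they rose from 7060 to 8421.5. The part of depth in the CPM was not tested. Fgf7 in the same bins was 70.66, 68.01, 54.77 and 34.48 CPM in mouse 1, 64.23, 73.74, 65.93 and 47.59 in mouse 2, and 61.97, 68.75, 40.87 and 23.72 in mouse 3. It was lowest in the last bin in each mouse, but rose at the first step in mice 2 and 3.

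Among preadipocyte cells, those led by Fabp4 (at least 3 UMIs, with at most 1 of Icam1) held more Fgf10 than those led by Icam1 in every mouse. Fabp4, a fatty acid binding protein, rises as fat cells mature. The levels were 185.0 against 92.60 CPM in mouse 1, 46.36 against 33.41 in mouse 2 and 82.44 against 59.90 in mouse 3. Fgf2 ran the other way in every mouse, at 12.75 against 20.09, 8.82 against 16.37 and 13.30 against 23.76 CPM. Fgf7 was also lower in Fabp4-led cells in every mouse (47.97 against 89.69, 48.0 against 69.03 and 43.22 against 70.79 CPM). So were Fgf18 (18.45 against 38.15, 13.95 against 30.09 and 24.27 against 30.94 CPM), Fgfr1 and Fgfr2. Fgfrl1 changed direction between mice. The split was chosen after values were seen and is a description.

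**Figure D3:**
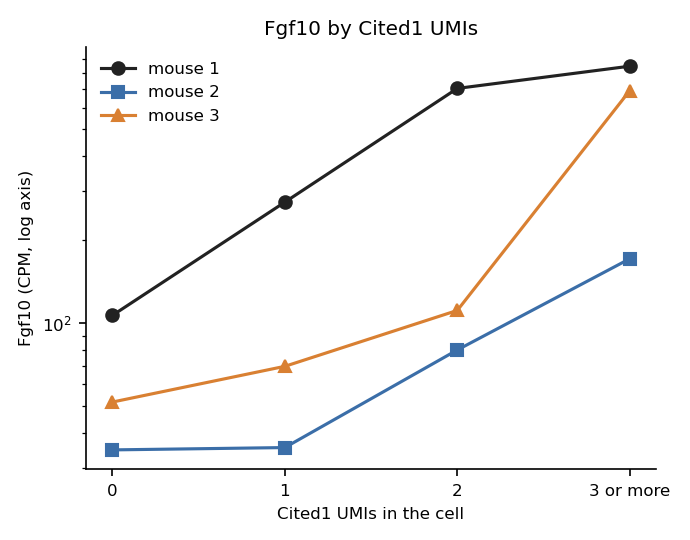
Fgf10 level (CPM, log axis) in cells with at least 2 UMIs of Fabp4 plus Lpl, by the number of Cited1 UMIs in the cell (lines, mice). In mouse 1 the level was 106.4 CPM with 0 and 846.8 with 3 or more Cited1 UMIs, and it rose in each mouse.

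Among the receptors, Fgfr1 was found in every class and was highest in progenitor cells, at 611.7, 633.3 and 794.3 CPM. Preadipocyte cells held 203.9, 263.6 and 260.3 CPM, regulatory cells 190.3, 184.9 and 195.6, and Cited1 cells 194.0, 347.1 and 319.0. Progenitor cells did not overlap with any other class. Fgfr1 was 2.87-fold lower in preadipocyte cells (log2 difference -1.52, SE 0.142, adjusted p = 1.76e-06), 3.49-fold lower in regulatory cells (-1.80, SE 0.149, adjusted p = 1.28e-06) and 2.75-fold lower in Cited1 cells (-1.46, SE 0.149, adjusted p = 1.64e-05). With the gates as given, no difference between the 3 lower classes passed the test. The Cited1 level depended on the gates. When Cited1 cells that met any other gate were left out, it was 377, 447 and 440 CPM in the few cells that remained. With stricter gates it was 158, 268 and 293 CPM. In progenitor cells, the summed level of 12 genes induced by dissociation (such as Fos and Jun) averaged 14700 CPM, against 21500 to 22500 CPM in the other classes. When the cells of each class were split at the median of this sum, Fgfr1 was lower in the upper group in every class (means of 3 mice). It was 804 against 558 CPM in progenitor cells, 312 against 175 in preadipocyte cells, 217 against 165 in regulatory cells and 338 against 231 in Cited1 cells. The groups were cut within each class, and the part of the dissociation genes in the class difference was not tested.

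Fgfrl1, the receptor without a kinase domain, was low in progenitor cells at 5.48, 6.86 and 5.47 CPM and higher in preadipocyte cells at 24.68, 23.55 and 20.20 CPM. Regulatory cells held 5.66, 11.47 and 8.32 CPM and Cited1 cells 25.45, 16.98 and 24.08. The preadipocyte and Cited1 values lay above all progenitor and regulatory values. The difference was 3.78-fold between preadipocyte and progenitor cells (1.92, SE 0.134, adjusted p = 1.23e-07) and 3.39-fold between Cited1 and progenitor cells (1.76, SE 0.216, adjusted p = 6.93e-05). Regulatory cells held 2.41-fold less than preadipocyte cells (-1.27, SE 0.203, adjusted p = 0.000747). The small excess in regulatory over progenitor cells (0.65, adjusted p = 0.0350) did not pass in 6 of 16 alternatives. Among these were stricter gates (0.27, adjusted p = 0.528) and leaving out mouse 2 (0.40, adjusted p = 0.350).

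Fgfr2, the receptor through which FGF7 and FGF10 act, was scarce in all classes. It stood at 4.26, 4.70 and 4.61 CPM in progenitor cells, 5.07, 4.12 and 5.20 in preadipocyte cells and 7.07, 9.01 and 8.32 in regulatory cells. The Cited1 values of 5.28, 4.25 and 18.06 CPM rested on 11, 4 and 12 UMIs. Without cells that held an epithelial UMI they were 5.28, 4.25 and 1.84 CPM. Fgfr2 was 1.90-fold higher in regulatory than in progenitor cells (0.92, SE 0.271, adjusted p = 0.0171) and 1.83-fold higher than in preadipocyte cells (0.87, SE 0.282, adjusted p = 0.0463). The regulatory class of mouse 3 held 5 cells with an epithelial UMI, and without such cells the differences were 0.64 and 0.60 and did not pass (adjusted p = 0.0883 and 0.176). In all, the difference from progenitor cells did not pass in 6 of 16 alternatives and that from preadipocyte cells in 10 of 16. With stricter gates regulatory cells held 5.37, 8.42 and 0 CPM, a mean of 4.6 against 4.45 in progenitor cells. The regulatory level was also not particular to that class. Preadipocyte cells led by Icam1 (at least 3 UMIs, with at most 1 of Fabp4) held 8.45, 9.96 and 8.42 CPM in mice 1, 2 and 3. Those led by Fabp4 held 3.69, 0.62 and 3.66 CPM. Cells that met no gate held 7.55, 8.22 and 9.47 CPM. Exons of Fgfr2 overlap those of Ctbp2 on the same strand in the annotation.

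Fgfr3 reached at most 14 UMIs in a class of a mouse, which was found in the Cited1 cells of mouse 1, with 0 and 2 in those of mice 2 and 3. It gave 0, 5 and 1 UMIs in regulatory cells, 10, 0 and 3 in preadipocyte cells and 4, 3 and 1 in progenitor cells. Fgfr3 passed the filter on low counts through the classes where it was high, so no test or fold is given and it is left out of the counts of genes that differed. Fgfr4 gave 0 to 3 UMIs per class and mouse and was not tested.

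Set against progenitor cells, 5 of the 7 FGF genes tested differed in preadipocyte cells, 2 higher and 3 lower, where 51.1% of 12507 genes differed. In regulatory cells 6 of 7 differed, 3 in each direction, against 38.5% of all genes. In Cited1 cells 5 of 7 differed, 2 higher and 3 lower, against 29.6%. Between regulatory and preadipocyte cells 4 of 7 differed against 20.5%, between Cited1 and preadipocyte cells 1 of 7 (Fgf10) against 7.19%, and between Cited1 and regulatory cells 3 of 7 against 15.0%. Comparisons with progenitor cells share those sums, and the shares of all genes show how many genes differ between classes of this kind.

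**Figure D4:**
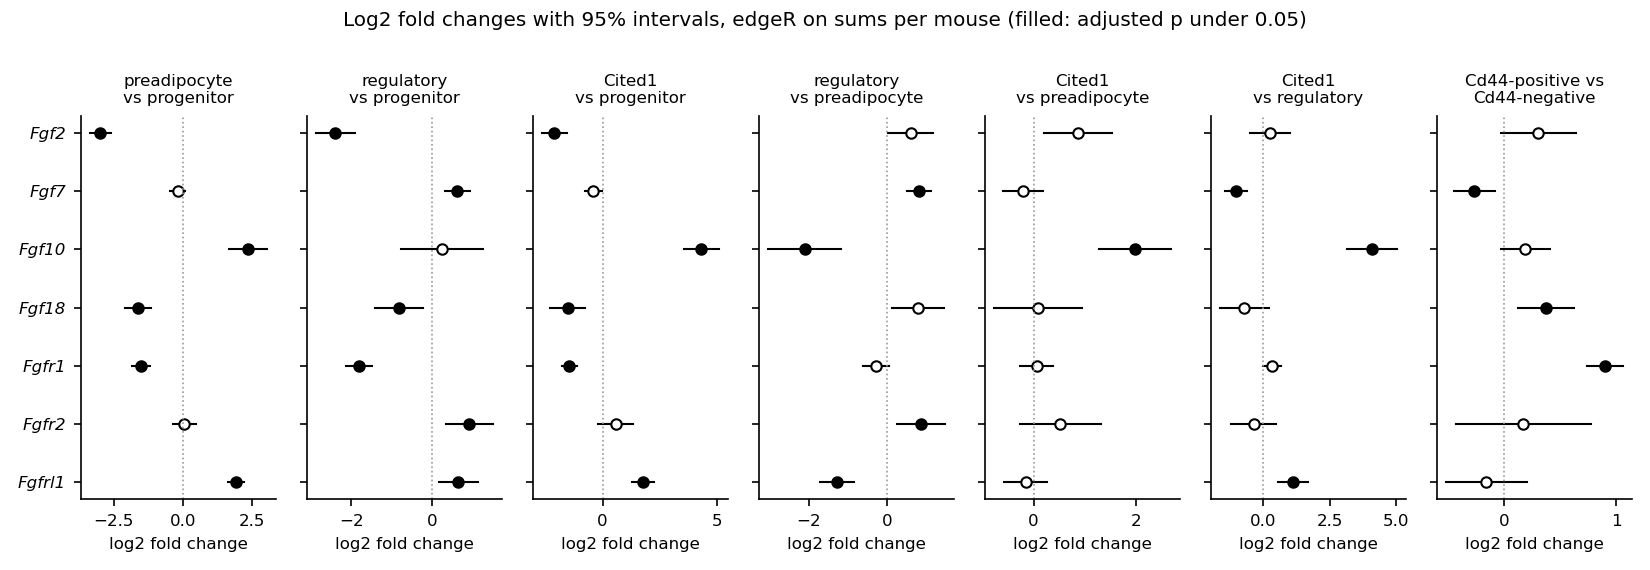
Log2 fold changes of 7 FGF genes in each comparison (points, edgeR on sums per mouse; lines, 95% intervals; filled, adjusted p under 0.05). Fgf2, Fgf18 and Fgfr1 lie below 0 in all 3 comparisons with progenitor cells, and Fgf10 is the only gene filled between Cited1 and preadipocyte cells.

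Within the preadipocyte gate, cells with at least 2 Cd44 UMIs were compared with cells with none, 886 against 3345 cells in all. CD44 is a hyaluronan receptor by which the study divided ICAM1+ cells. The split here is not the same. The study sorted its cells by surface protein, whereas Cd44 RNA was used here and cells with 1 Cd44 UMI were left out. The gate also takes Icam1 and Fabp4 together. Of its cells, 794, 415 and 456 in mice 1, 2 and 3 were Fabp4-led with at most 1 Icam1 UMI. Cd44-positive cells were deeper in each mouse, with median UMIs of 8781, 13668.5 and 7560 against 7826.5, 12594 and 7099.5. Noct, Ptx3 and Mt2 were higher and Txnip and G0s2 lower in the Cd44-positive cells in every mouse. The study named these markers from the same data, so this describes the split and does not test it. Fgfr1 was the FGF gene that moved most. It stood at 285.6, 389.7 and 389.3 CPM in Cd44-positive cells and at 185.1, 202.1 and 220.5 CPM in Cd44-negative cells of mice 1, 2 and 3, with no overlap. The difference was 1.87-fold (log2 0.90, SE 0.0751, adjusted p = 1.15e-06). It was 0.77 with cells thinned to 3000 UMIs (adjusted p = 0.00701) and 1.13 with stricter gates (adjusted p = 1.03e-07). Thinning dropped the shallower cells and repeated the gates, which left 33, 27 and 74 Cd44-positive cells in mice 1, 2 and 3. Without the mouse term the Fgfr1 difference was 0.91 and did not pass (adjusted p = 0.113).

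The dissociation genes summed to a mean of 17500 CPM in Cd44-positive and 24100 in Cd44-negative cells. Among preadipocyte cells split at the median of that sum, Fgfr1 was lower in the upper group in every mouse (165.5 against 242.4, 172.1 against 354.7 and 187.5 against 337.8 CPM). Fgf7 was higher there in every mouse (71.82 against 52.47, 69.53 against 41.56 and 60.22 against 45.13 CPM), and so was Fgf18 (23.66 against 19.96, 20.98 against 18.44 and 26.6 against 22.87 CPM). The summed level of 6 endothelial markers also moved with the split, at 0 to 2.44 CPM in Cd44-positive and 4.05 to 56 CPM in Cd44-negative cells. The part of the dissociation genes and of endothelial RNA in the Cd44 differences was not tested.

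Fgf7 was slightly lower in Cd44-positive cells, at 53.52, 44.83 and 43.21 CPM against 63.89, 61.31 and 56.39 (-0.27, SE 0.0863, adjusted p = 0.0420). Fgf18 was slightly higher, at 26.55, 22.64 and 27.99 CPM against 21.24, 20.07 and 22.05 (0.37, SE 0.116, adjusted p = 0.0372). In both genes the values did not overlap, but neither call held when mouse 2 or mouse 3 was left out (Fgf7 adjusted p = 0.176 and 0.125, Fgf18 adjusted p = 0.132 and 0.199), and Fgf18 did not pass without mouse 1 either (adjusted p = 0.106). Fgf10 stood at 188.8, 39.95 and 61.32 CPM against 143.8, 40.69 and 71.85 and was higher in 1 of 3 mice (0.19, interval -0.03 to 0.41, adjusted p = 0.228). In all, 3 of 7 FGF genes tested differed, where 18.8% of 11243 genes did.

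**Figure D5:**
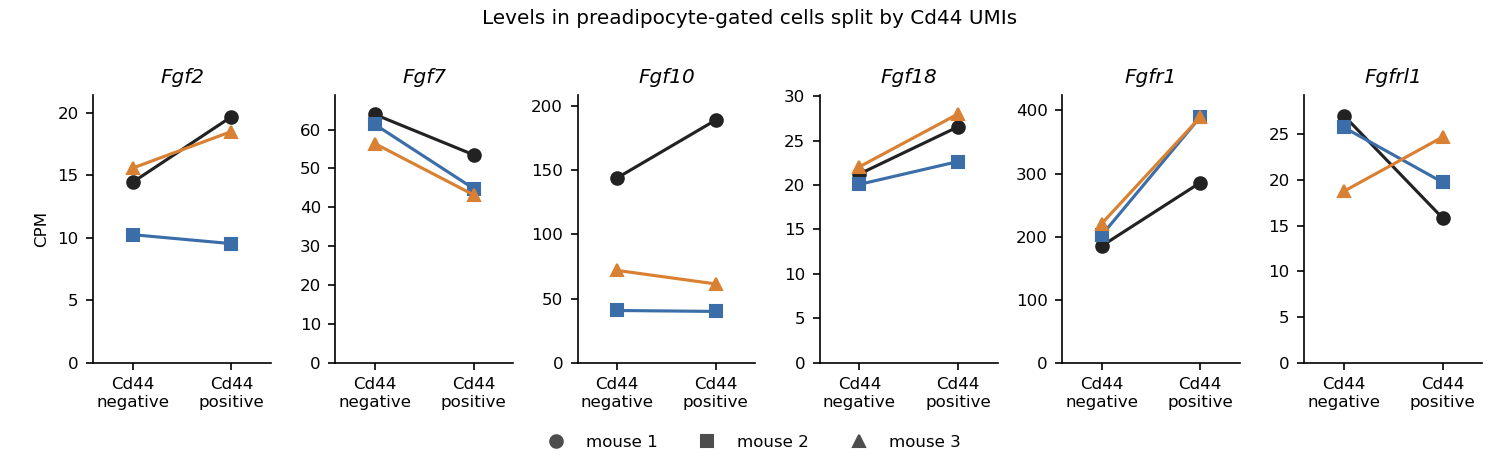
CPM of 6 FGF genes in preadipocyte cells without Cd44 UMIs and with at least 2 (lines join the values of each mouse; axes start at 0). Fgfr1 rose in all 3 mice, to 285.6 to 389.7 CPM, while Fgf10 rose in mouse 1 alone.

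Other genes of the pathway were read from 5 lists of 74 genes (other ligands, coreceptors, heparan sulphate genes, adaptors and kinases, targets and feedback), of which 56 were tested. In preadipocyte against progenitor cells 17 were higher and 20 lower, with a median log2 difference of -0.04 against 0.01 for all genes. Over all genes tested, 25.1% were higher and 26.0% lower in this comparison. In regulatory against progenitor cells 14 were higher and 16 lower, in Cited1 against progenitor cells 11 and 16, in regulatory against preadipocyte cells 10 and 10, in Cited1 against preadipocyte cells 6 and 7, and in Cited1 against regulatory cells 6 and 8. Over all genes the shares higher and lower were 18.6% and 19.9%, 13.2% and 16.5%, 10.9% and 9.55%, 3.23% and 3.96%, and 6.56% and 8.40% in the same order. For preadipocyte against progenitor cells, 3 of 15 adaptors and kinases were higher and 4 lower, 1 of 4 coreceptor and binding genes was higher and 2 lower, and 2 of 7 other ligands were higher and 1 lower. The targets and feedback list had 6 of 11 higher and 3 lower, with a median of 0.74. Its members include Spry4, an inhibitor of receptor tyrosine kinase signalling, at 26.2, 31.1 and 27.7 CPM in preadipocyte and 3.02, 2.1 and 2.4 in progenitor cells (3.46, SE 0.165, adjusted p = 4.82e-09). Etv1, an ETS family transcription factor, was at 10.4, 8.85 and 10.5 CPM in preadipocyte cells and 9.2, 6.83 and 6.24 in regulatory cells. Cited1 cells held 6.72, 2.12 and 4.51 CPM and progenitor cells 0.67, 0.657 and 0.633. Etv1 passed the filter on low counts only through the classes where it was high, so no test or fold is given. It stays in the list counts. Dusp6, a phosphatase that acts on ERK, was higher in Cited1 than in progenitor cells (2.48, SE 0.361, adjusted p = 0.000243). It stood at 25.9, 9.55 and 9.03 CPM in Cited1 and 2.79, 2.92 and 2.42 in progenitor cells. This was not particular to Cited1 cells, since preadipocyte cells held 16.5, 14.0 and 11.2 CPM and regulatory cells 7.07, 13.9 and 17.2. Spry1 was lower in Cited1 than in preadipocyte cells (-1.70, SE 0.210, adjusted p = 0.000551), at 18.7, 37.2 and 28.6 against 53.3, 117 and 74.4 CPM. Progenitor cells held less than either, at 9.7, 11.6 and 8.78 CPM.

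The heparan sulphate list was mixed, with 5 of 19 higher and 10 lower in preadipocyte than in progenitor cells, where 25.1% and 26.0% of all genes were. Gpc1, a glypican, was at 11.7, 8.69 and 7.08 CPM in preadipocyte and 0.652, 0.342 and 0.373 in progenitor cells. Like Etv1, it passed the filter on low counts only through classes where it was high, so no test or fold is given. It stays in the list counts. Sdc1, a syndecan, was higher in preadipocyte than in progenitor cells (3.25, SE 0.283, adjusted p = 9.12e-07). Sdc1 rose again from preadipocyte to Cited1 cells (2.1, SE 0.291, adjusted p = 0.00114), reaching 230, 27.6 and 82.8 CPM in mice 1, 2 and 3. Hs3st1, a heparan sulphate sulfotransferase, was lower in preadipocyte than in progenitor cells (-3.09, SE 0.203, adjusted p = 7.49e-08). Among the coreceptor and binding genes, Flrt3, a transmembrane protein that binds FGF receptors, was at 72.8, 84.3 and 76.2 CPM in progenitor cells and at 1.41, 1.37 and 3.64 CPM in regulatory cells (-5.27, SE 0.384, adjusted p = 5.13e-07). Nrp1 was lower in Cited1 than in regulatory cells (-1.34, SE 0.151, adjusted p = 0.000133).

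The other ligands were scarce, and their calls rest on few UMIs. Fgf23, the phosphate-regulating hormone, gave 34 UMIs in regulatory cells (2.83, 4.37 and 7.28 CPM) and 20 in the far larger progenitor class. Fgf12 gave 17 UMIs in regulatory cells (1.41, 3.0 and 2.08 CPM) and 48 in progenitor cells. Fgf23 and Fgf12 passed the filter on low counts through the regulatory cells, where they were high, so no test or fold is given. Both stay in the list counts above. Fgf13, an intracellular member of the family that is not secreted, was at 10.1, 3.18 and 10.5 CPM in Cited1 and 1.97, 1.11 and 1.13 in preadipocyte cells. It passed the filter on low counts through the Cited1 cells, where it was high, so no test or fold is given. It stays in the list counts above. Fgf1, the acidic FGF, was at 16.8, 2.12 and 12 CPM in Cited1 and 2.92, 0.612 and 1.66 in preadipocyte cells (2.48, SE 0.432, adjusted p = 0.00450). Regulatory cells held 5.66, 3.55 and 6.76 CPM of Fgf1, more than Cited1 cells in mouse 2. Fgf21, a metabolic hormone, gave 5 UMIs in Cd44-positive and 95 in Cd44-negative cells. It passed the filter on low counts through the Cd44-negative cells, where it was high, so no test or fold is given. Of 52 list genes tested in the Cd44 comparison, 13 were higher and 4 lower in Cd44-positive cells, where 12.6% and 6.22% of all genes were. Fgf21 is counted among the 4 lower. Among the higher was Ccnd1, a cyclin (1.02, SE 0.182, adjusted p = 0.00111). Ccnd1 stood at 9.85, 24 and 26.3 CPM in Cd44-positive cells of mice 1, 2 and 3. Cd44-negative cells held 8.83, 11.6 and 11 CPM, so the difference was small in mouse 1 and lay mainly in mice 2 and 3.

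The genes most like each FGF gene were sought by Pearson correlation of log2 CPM, centred within each mouse, over the 12 class sums, among 5612 genes with a mean of at least 20 CPM. The points are 4 classes of each mouse, and gate genes were left out. Values near 1 are easily reached when the highest of 5612 genes are picked over 4 classes. They describe a like pattern over the classes and do not test shared regulation. Nearest to Fgf2 were Il13ra1 (0.989), Cc2d2a (0.986) and Prkca (0.984). Nearest to Fgfr1 were Mfap5 (0.993), Fbn1 (0.991) and Emilin2 (0.991), of which Mfap5 and Fbn1 encode microfibril proteins. Fgfrl1 lay nearest to Pparg (0.988), the adipogenic nuclear receptor, Cd36 (0.986) and Slc9a3r2 (0.983). Pparg and Cd36 were already on the preadipocyte marker list. Fgf10 lay nearest to Hadha (0.980), Chsy1 (0.977) and Itga2b (0.970), and Fgf18 to Abca8b (0.981), Stag2 (0.965) and Cldn10 (0.964). Fgfr2 lay nearest to Amd1 (0.952).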

How the data were processed

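The deposited files hold raw UMI counts per gene and barcode, which the authors made with Cell Ranger (version 2.1.1 per the labels, 4.0.0 per the file headers) against mm10. Cells were gated as described above. Cells of the Cited1 gate were counted there alone, and other cells of several gates were left out. UMIs were summed per class and mouse and tested with edgeR 4.0.16 (quasi-likelihood, TMM, filterByExpr, class plus mouse, Benjamini-Hochberg at 0.05) in R 4.3.3. The Cd44 comparison was fitted separately. Gate genes and Cd44 were left out of the counts of all genes. Sums of a mouse deviated together (correlations between classes 0.335 to 0.903). Each mouse is also 1 library, so animal and library cannot be told apart. On simulated counts with known changes, the fit recovered 100 of 100 genes changed by 1 on the log2 scale for preadipocyte against progenitor cells, 83 of 100 for Cited1 against preadipocyte cells and 95 of 100 for Cd44. False calls numbered 7, 11 and 7 in the same order. The changed genes were drawn from the better expressed ones. The spread was set alike for every gene, and the mouse effect was shared by all classes. These rates do not carry over to scarce genes or to genes that vary widely between mice. The members, lists and gates were chosen with earlier results of these data known. Named pathway genes were those called with a log2 difference of at least 1, at most 6 per comparison. Doublets were not called, although leaving out the deepest 5% of cells was tried. CPM values were computed from the counts. Fgfr3 and Fgfr4, with few UMIs, were left out of counts of members. The genes most like Fgf7 are not reported here. Depth was 79801002 to 100846072 UMIs per library, and counting error limits the smallest classes.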

Additional observations from a re-analysis of the deposited data

How the results depend on the processing

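Of 27 member differences that passed, 13 kept their direction and call in all alternatives run, among them Fgf2, Fgfr1 and Fgfrl1 in preadipocyte and Cited1 against progenitor cells and Fgf10 in preadipocyte against progenitor, Cited1 against progenitor and Cited1 against regulatory cells. The causes of the changes below were not tested. Cited1 cells are few, and mouse 2 holds 64. Thinning left 96, 7 and 28 Cited1 cells in mice 1, 2 and 3.

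Counts of members that differed, of 7, when a mouse was left out were 5 in each case for preadipocyte against progenitor cells (36.1 to 44.9% of all genes), 3 to 6 for regulatory against progenitor (23.3 to 31.5%), 4 to 6 for Cited1 against progenitor (14.0 to 29.7%), 1 to 4 for regulatory against preadipocyte (9.33 to 15.2%), 0 to 2 for Cited1 against preadipocyte (1.26 to 7.32%), 1 to 3 for Cited1 against regulatory (4.94 to 13.5%) and 1 to 2 for Cd44 (9.66 to 16.7%). Without the replicate block the count was 3 for regulatory against progenitor cells (21.5% of all genes), 0 for Cited1 against preadipocyte cells (1.76%) and 0 for Cd44 (0.133%). At an unadjusted p under 0.05, edgeR gave 2 members in each of the last pair, and 1 in Cited1 against preadipocyte cells without mouse 3, where the count was also 0. For Cd44 it was 1 with thinned cells (1.70%), with DESeq2 (6.59%), with stricter gates (16.9%) and without the deepest cells (17.4%). For Cited1 against preadipocyte cells it was 2 with DESeq2 (9.36%) or no filter on low counts (7.04%) and 3 with cells of more than 1 gate left out (4.63%). It was 2 in alternatives chosen after seeing the data, with Cited1 cells of the progenitor or regulatory gate left out (7.65%), alone or together with epithelial cells (7.52%).

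The call for Fgf18 in the Cd44 split turned to -0.27 with thinned cells. All other reversals were of differences that had not passed. With a mouse left out the range was -0.03 to 0.16 for Fgfr2 in preadipocyte against progenitor cells, -0.01 to 0.96 in Cited1 against progenitor and -0.02 to 0.99 in Cited1 against preadipocyte cells. In Cited1 against preadipocyte cells it was -0.59 to 0.13 for Fgf7, -0.72 to 0.75 for Fgf18 and -0.08 to 0.21 for Fgfr1. It was -1.39 to 0.17 for Fgf18 in Cited1 against regulatory cells and, for Cd44, -0.02 to 0.29 for Fgf10, -0.07 to 0.32 for Fgfr2 and -0.45 to 0.04 for Fgfrl1.
Fgfr2 in preadipocyte against progenitor cells was -0.01 with no filter, -0.06 with thinned cells and -0.04 without the deepest cells. In Cited1 against progenitor cells it was -0.06 without the deepest cells, -0.19 without epithelial cells and -0.13 with both exclusions. In Cited1 against preadipocyte cells it was -0.01, -0.24 and -0.17 in the same order.
In that comparison Fgf18 was -0.44 with stricter gates, -3.07 with thinned cells, -0.15 without the deepest cells, -0.65 without cells of the progenitor or regulatory gate and -0.68 with both exclusions. The thinned Cited1 cells held 0, 0 and 11.9 CPM of Fgf18 in mice 1, 2 and 3, so the thinned value rests on almost no UMIs. Fgfr1 was -0.26, -0.29, -0.19 and -0.19, and Fgfrl1 0.18, 0.24, 0.02 and 0.02, with stricter gates, thinned cells, the gate exclusion and both exclusions.
In Cited1 against regulatory cells Fgf2 was -0.36 with thinned cells, -0.45 with the gate exclusion and -0.40 with both, and Fgfr2 was 0.13 with stricter gates, 0.05 with cells of more than 1 gate left out and 0.10 with thinned cells. For Cd44, thinned cells gave -0.03 for Fgf10 and 0.24 for Fgfrl1, and Fgfr2 was -0.20 without the deepest cells.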
